A study of Danio rerio with 27 samples.

Results

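Matrix metalloproteinases and their tissue inhibitors were followed across sorted spic reporter cells of adult zebrafish, which the study calls progenitors of metaphocytes, macrophage-like cells of the skin and gill. The set was given as 9 gene symbols: mmp2, mmp9, mmp13a, mmp13b, mmp14a, mmp14b, mmp25b, timp2a and timp2b. The expression table held 8 of them among its 32520 genes, and the symbol mmp13a was absent. The identifier that a reference table of gene names pairs with mmp13a (ENSDARG00000012395) was in the table under its identifier alone, and was listed at 0 in all 27 libraries.

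Matrix metalloproteinases are zinc-dependent enzymes that cut collagens, laminins and other matrix and cell surface proteins. They are made as inactive precursors, and some are secreted while others stay anchored in the membrane. Tissue inhibitors of metalloproteinases block their active site; in mammals the inhibitor TIMP2 also bridges the precursor of MMP2 to the membrane enzyme MMP14, which activates it. In zebrafish, mmp9 is induced in leukocytes and in injured or inflamed epidermis.

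Each library held 30 cells, sorted for EGFP from a spic reporter and against DsRedx from an mpeg1 reporter. Every fish, mutant or sibling, carried both transgenes, Tg(spic:EGFP; mpeg1:DsRedx). The reporter that selected the cells is driven by regulatory sequence of the gene that is mutated. The groups were sibling epidermis (7 libraries), spic mutant epidermis (7), sibling gill (5) and spic mutant gill (8), all from adults; spic encodes an Ets-family transcription factor. The sources used here do not give the mutant allele or the genotype of the siblings. They do not say either whether each library is a different fish, and the spread behind the p-values may therefore be technical. Each pool of cells was amplified by Smart-seq2 in 23 cycles, so that fewer expressing cells and less RNA per cell cannot be told apart.

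The deposited values are TPM, a measure of transcript abundance, which are scaled by gene length and add up to a fixed sum, and which keep no read counts. Libraries had 6469 to 10655 genes at 1 TPM or more. For the members, the low values were read as multiples of a common step, searched for as the lowest value divided by a whole number. The search stopped where every value under 60 steps lay within 0.05 of a whole step, so this closeness was its stopping rule. The divisor was 8 for mmp9, 2 for timp2a and 1 for mmp2, mmp14a, mmp14b and timp2b. For mmp9 a step was worth 0.0725 to 0.156 TPM, depending on the library. The targeted gene spic stood at 561 to 760 TPM in epidermis and 140 to 500 TPM in gill of siblings. In mutants it stood at 7.37 to 125 TPM in epidermis and at 2.92 to 53.3 TPM in gill. All 7 markers of the metaphocyte list (spic, mpeg1.1, cldnh, grn2, epcam, cd74a and cd74b) reached 1 TPM in at least 1 library of each group. Means of mpeg1.1 in siblings and mutants were 210 and 1.29 TPM in epidermis and 103 and 1.71 TPM in gill. The granulin gene grn2 stood at 133 to 6032 TPM in sibling epidermis and at no more than 41.8 TPM in mutant epidermis. Means of cd74a, cd74b and epcam were 1581, 2083 and 1875 TPM in mutant epidermis against 4540, 4897 and 2592 TPM in siblings. That of cldnh was higher in mutants (1103 against 713 TPM). In gill cldnh, epcam and cd74b had higher means in mutants (2324, 3124 and 3671 against 1210, 2635 and 2749 TPM). Those of grn2 and cd74a were lower there (23.25 and 2234 against 2500 and 3141 TPM). The list moved both ways, and the mutant cells are named here by the sort and not as metaphocytes. Tests used limma on log2(TPM + 1) over 13465 genes, with Benjamini-Hochberg adjusted p-values and a threshold of 0.05, and 5 members passed its filter on low values: mmp2, mmp9, mmp14b, timp2a and timp2b. The median log2 change of all tested genes was -0.27 in epidermis and -0.03 in gill. Of all genes 556 rose and 1170 fell in epidermis, and 315 rose and 521 fell in gill. Quantile normalization gave 889 and 1006 in epidermis and 376 and 513 in gill. Median centring moved the median to 0.91 and 0.83 and gave 2034 and 408 in epidermis and 1079 and 224 in gill. The directions of mmp9, timp2a and mmp2 between mutants and siblings were the same under both scalings.

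In both tissues the mutants had less mmp9 and more timp2a, and mmp9 made up most of the set in siblings but not in mutants. In epidermis mmp9 fell and timp2a rose, and in gill mmp9 fell and timp2a rose, so that 2 of 5 tested members passed in each tissue (limma, adjusted p-values below). The epidermal call of timp2a ended in 10 of 14 fits that left out 1 library. Of all tested genes 12.8% passed in epidermis (4.13% higher and 8.69% lower in mutants) and 6.21% in gill (2.34% higher and 3.87% lower). Summed over the 8 members in the table, the level was 252 ± 140 TPM (SD, n = 7) in sibling epidermis and 64.2 ± 53.5 TPM (SD, n = 7) in mutant epidermis. In gill the sum was 54.3 ± 38.6 TPM (SD, n = 5) in siblings and 147 ± 70.0 TPM (SD, n = 8) in mutants. The share of mmp9 in this sum was 91.5 to 99.7% in sibling epidermis and 59.2 to 99.1% in sibling gill. It was 0.870 to 40.6% in mutant epidermis and 0 to 8.56% in mutant gill. In mutants the share of timp2a had a median of 37.9% (1.76 to 96.7%) in epidermis and 86.3% (31.0 to 98.6%) in gill. That of mmp2 had a median of 45.7% (0.744 to 95.4%) in epidermis and 7.54% (0.261 to 62.2%) in gill, and mmp2 passed in neither tissue.

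**Figure D1:**
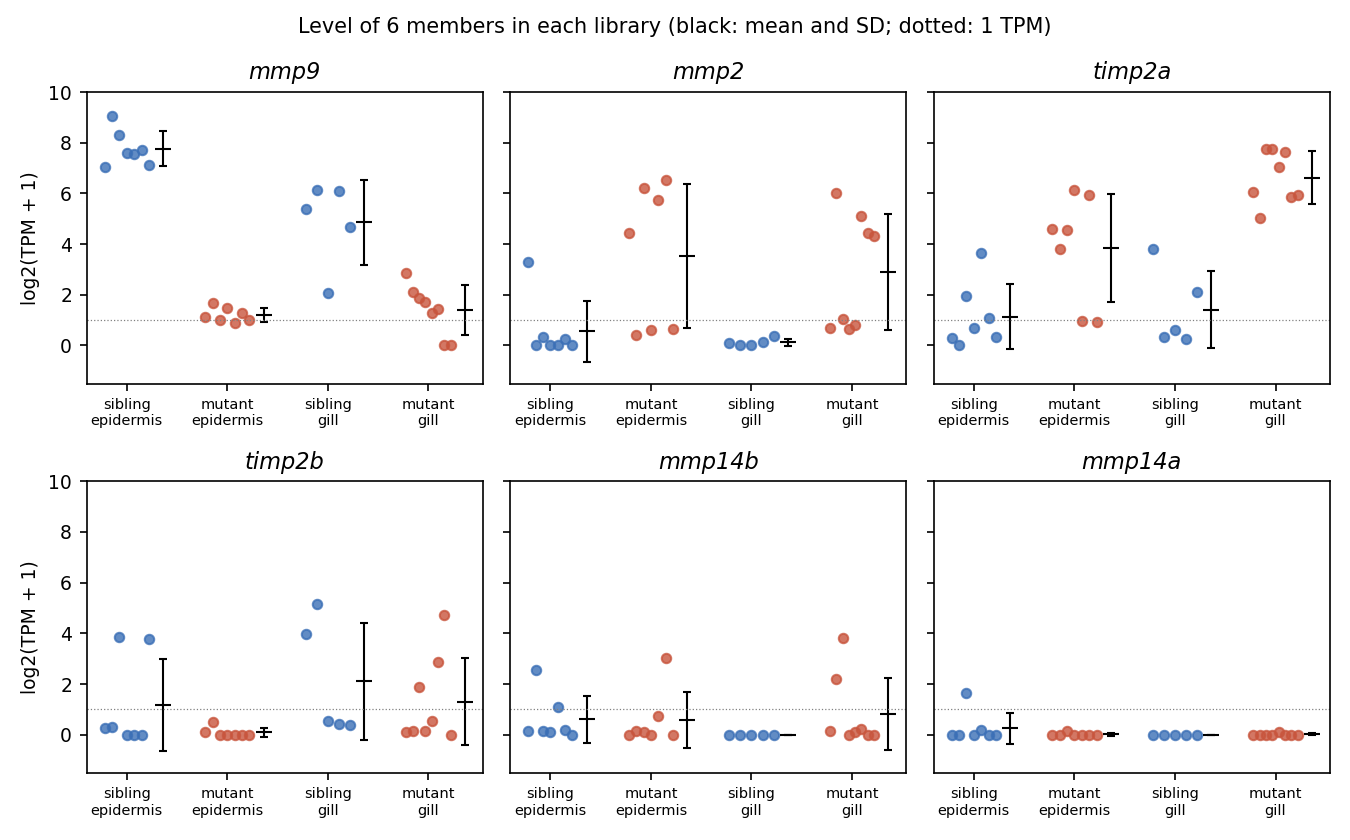
Level of 6 members as log2(TPM + 1) on the vertical axis, with 1 point per library in 4 groups; black marks are the mean and SD of the group and the dotted line is 1 TPM. The mmp9 points of mutant epidermis lie between 0.853 and 2.18 TPM, below all sibling points of that tissue, and the timp2a points of mutant gill lie above all those of sibling gill.

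The gelatinase gene mmp9 (ENSDARG00000042816) had the highest level of any member in siblings. In sibling epidermis its lowest, median and highest libraries stood at 130, 193 and 531 TPM. In mutant epidermis they stood at 0.853, 1.202 and 2.18 TPM. Every sibling library was above every mutant library, and the mutant mean of 1.35 ± 0.483 TPM (SD, n = 7) was 0.556% of the sibling mean of 243 ± 140 TPM (SD, n = 7). The low mutant values were not single steps: they came to 8 to 14 steps, and all 7 mutant libraries were above 0. The log2 change was -6.56 ± 0.70 (SE; limma, adjusted p = 1.99e-08), or -6.28 relative to the median of all genes, which placed mmp9 at rank 32 of 13465 genes by p.

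In sibling gill mmp9 stood at 40.4, 68.5, 3.22, 67.2 and 24.3 TPM in libraries 1 to 5. In mutant gill the lowest, median and highest of 8 libraries were 0, 2.01 and 6.20 TPM. Sibling gill 3 lay within the mutant range, so the groups overlapped by this library, and mutant gill 7 and 8 were listed at 0. The mean went from 40.7 ± 28.1 TPM (SD, n = 5) to 2.20 ± 1.997 TPM (SD, n = 8), with 5.42% of the sibling mean left. The log2 change was -3.45 ± 0.74 (SE; limma, adjusted p = 0.00277). The fall was larger in epidermis than in gill by 3.11 ± 1.02 log2 units (SE), but that difference did not pass (limma, adjusted p = 0.236; 0.0594% of all genes passed).

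Between the tissues, sibling epidermis had more mmp9 than sibling gill in every library, 130 TPM at least against 68.5 TPM at most. The log2 change, gill minus epidermis, was -2.91 ± 0.76 (SE), narrowly outside the threshold (limma, adjusted p = 0.0549; 0.958% of all genes passed). It passed under 8 of 11 other settings, with adjusted p from 0.00232 to 0.229 over them, and without sibling gill 3 it was 0.254. In mutants the tissues differed by 0.20 ± 0.67 log2 units (SE; limma, adjusted p = 0.923), a direction that turned under 4 of 11 other settings.

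Markers of other leukocytes that can carry mmp9 were read beside it, and some were listed at 0 while others were high in single libraries. The neutrophil gene mpx, which encodes myeloperoxidase, was listed at 0 in all 4 groups, as was the protease gene adam8a. Of the 7 neutrophil markers, 4 reached 1 TPM in sibling epidermis and 2 in each other group, and their sum had a median of 46.2 TPM (siblings) and 122 TPM (mutants) in epidermis and of 68.7 and 66.9 TPM in gill. Most of that sum came from padi2, which encodes a peptidylarginine deiminase and had means of 73.0, 143, 53.5 and 90.5 TPM in the same order. The granule and secreted protein genes lect2l, npsn and lyz had a median of 0 in sibling epidermis but reached 27.2, 19.0 and 9.15 TPM in their highest libraries there, and npsn reached 29.2 TPM in sibling gill. In mutants these 3 genes stayed at 1.74 TPM or less. The neutrophil marker csf3r went the other way. It was listed at 0 in all sibling libraries and reached 10.01 TPM in mutant gill, where its median was 0. Of the 8 macrophage markers, csf1ra, c1qa and c1qb were listed at 0 in every library, and mpeg1.1 alone reached 1 TPM in siblings. The macrophage sum ran from 101 to 335 TPM in epidermis and 12.2 to 140 TPM in gill of siblings. In mutants it ran from 0.557 to 5.57 TPM in epidermis and 0 to 106.5 TPM in gill, where c1qc reached 105.6 TPM in its highest library. The genes mpeg1.2 and mfap4 were at 0.108 TPM or less in siblings. In mutants mpeg1.2 reached 35.1 TPM in gill, and mfap4 reached 4.25 TPM in epidermis and 7.17 TPM in gill. Like mmp9, mpeg1.1 and with it the median macrophage sum were lower in mutants of both tissues. In sibling gill libraries 1 to 5 the macrophage sum stood at 12.2, 116, 135, 140 and 113 TPM. Those libraries had mmp9 at 40.4, 68.5, 3.22, 67.2 and 24.3 TPM, so the lowest sum and the lowest mmp9 fell in different libraries. The part of either list in the mmp9 result was not tested.

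The inhibitor gene timp2a (ENSDARG00000061226) was higher in mutants of both tissues, most clearly in gill. Sibling gill stood at 12.9, 0.255, 0.537, 0.184 and 3.28 TPM in libraries 1 to 5. Mutant gill had a lowest, median and highest library of 31.4, 98.5 and 212 TPM. All 8 mutant libraries were above all 5 sibling libraries, and 3 of the 5 sibling values came to no more than 4 steps. The mean rose from 3.42 ± 5.43 TPM (SD, n = 5; 1.06 TPM without sibling gill 1) to 121 ± 76.7 TPM (SD, n = 8). The log2 change was 5.21 ± 0.93 (SE; limma, adjusted p = 0.000303), and the gene ranked 126 of 13465 by p.

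In epidermis the rise of timp2a was smaller and uneven. Sibling libraries had a lowest, median and highest value of 0, 0.596 and 11.4 TPM, and mutant libraries of 0.910, 22.5 and 69.3 TPM. Mutant epidermis 5 and 7 were under 1 TPM, within the sibling range, while the other 5 were above 10 TPM. The mean went from 2.36 ± 4.11 TPM (SD, n = 7; 0.849 TPM without sibling epidermis 5) to 27.3 ± 27.5 TPM (SD, n = 7). The log2 change of 2.71 ± 0.87 (SE) passed (limma, adjusted p = 0.0345), or 2.98 relative to the median of all genes, but 10 of 14 fits that left out 1 library ended the call, with a highest adjusted p of 0.0910 without mutant epidermis 4. Without the 3 libraries with the fewest detected genes (mutant epidermis 2 and 4 and mutant gill 8) the adjusted p was 0.141.

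The mutant effect on timp2a differed between tissues by 2.50 ± 1.28 log2 units (SE, gill minus epidermis; limma, adjusted p = 0.548), which did not pass. Mutant gill had more timp2a than mutant epidermis by 2.77 ± 0.85 log2 units (SE), narrowly outside the threshold (limma, adjusted p = 0.0535; 4.23% of all genes passed). The ranges of these groups overlapped, from 31.4 to 212 TPM in gill and from 0.910 to 69.3 TPM in epidermis. The call was made with a pseudocount of 10 (adjusted p = 0.0149) and without the 3 libraries named above (0.0497), among 11 settings with adjusted p up to 0.218.

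Its paralogue timp2b (ENSDARG00000075261) did not follow timp2a. It was under 0.42 TPM in all 7 libraries of mutant epidermis, with 5 of them at 0. In sibling epidermis it stood at 13.3 TPM in library 3 and 12.6 TPM in library 7, and at 0.250 TPM or less in the other 5. In gill it stood at 14.9 and 34.5 TPM in sibling libraries 1 and 2 and at 25.1, 6.25 and 2.71 TPM in mutant libraries 7, 6 and 3, with the other libraries under 0.5 TPM. The gene was thus high in a few libraries of 3 groups and near 0 in the rest. Log2 changes of -1.08 ± 0.83 in epidermis and -0.80 ± 0.89 in gill (SE) did not pass (limma, adjusted p = 0.46 and 0.683), and with median centring they were 0.10 and 0.05.

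**Figure D2:**
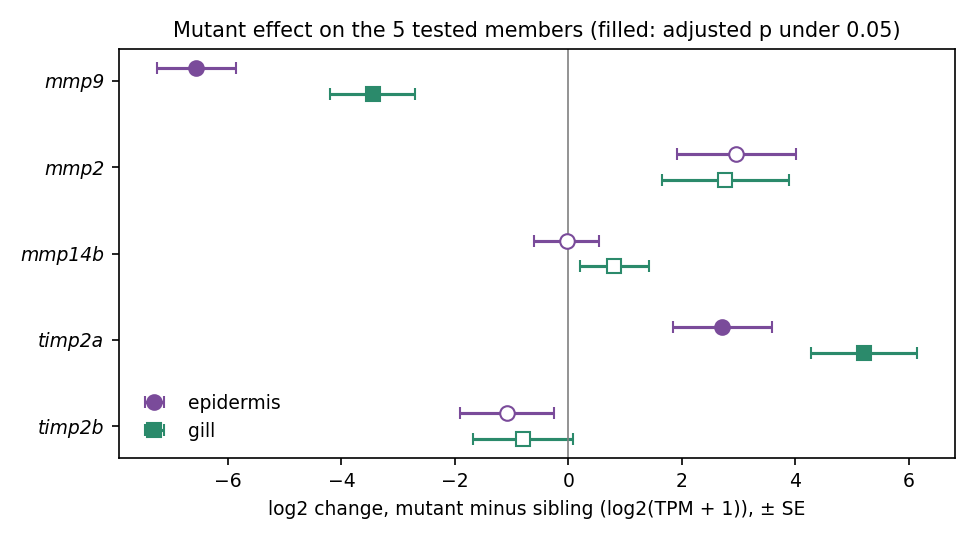
Log2 change on log2(TPM + 1), mutant minus sibling, with its SE on the horizontal axis for the 5 tested members; circles are epidermis, squares are gill, and filled symbols passed an adjusted p of 0.05. The gene mmp9 lies at -6.56 in epidermis and -3.45 in gill, timp2a at 2.71 and 5.21, and mmp2, mmp14b and timp2b are open in both tissues.

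The second gelatinase gene, mmp2 (ENSDARG00000017676), was high in some mutant libraries and near 0 in others. In mutant epidermis libraries 1, 3, 5 and 6 stood at 20.7, 74.1, 52.1 and 91.6 TPM. Libraries 2, 4 and 7 stood at 0.322, 0.533 and 0.587 TPM, which came to 2 to 5 steps. No library lay between 1 and 20 TPM. In sibling epidermis only library 1 exceeded 1 TPM, at 8.72 TPM, and 4 of 7 were at 0. The mean was 1.31 ± 3.27 TPM (SD, n = 7; 0.0767 TPM without sibling epidermis 1) in siblings and 34.3 ± 38.3 TPM (SD, n = 7) in mutants. The log2 change of 2.96 ± 1.05 (SE) was narrowly outside the threshold (limma, adjusted p = 0.0579); over 10 other settings the adjusted p ran from 0.00504 to 0.118, and 5 of them passed.

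In mutant gill mmp2 stood at 63.1, 33.8, 20.9 and 19.2 TPM in libraries 2, 6, 7 and 8. The other 4 libraries stood at 0.563 to 1.05 TPM, which came to 4 to 9 steps. Sibling gill was at 0.282 TPM or less, 3 steps at most. The groups did not overlap, but at their closest they were only 0.563 TPM in mutants against 0.282 TPM in siblings. The log2 change of 2.77 ± 1.12 (SE) did not pass (limma, adjusted p = 0.151). Over 10 other settings the adjusted p was 0.0343 to 0.333, and 2 of them passed. The mutant effects of the tissues differed by -0.20 ± 1.53 log2 units (SE; limma, adjusted p = 0.983), a direction that turned with a pseudocount of 0.1.

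The membrane enzyme genes mmp14a and mmp14b, whose mammalian counterpart activates MMP2, were close to 0 nearly everywhere. The gene mmp14a (ENSDARG00000002235) reached 1 TPM in 1 of 27 libraries, sibling epidermis 3 at 2.09 TPM, and did not pass the filter. Its mean log2(TPM + 1) was lower by 0.24 in mutant than in sibling epidermis (-0.24, mutant minus sibling; two-sided exact permutation test, p = 0.462), and it was at 0 in all sibling gill libraries. The gene mmp14b (ENSDARG00000008388) reached 1 TPM in 5 libraries. These were sibling epidermis 2 and 5 at 4.83 and 1.14 TPM, mutant epidermis 6 at 7.21 TPM, and mutant gill 2 and 3 at 3.601 and 13.1 TPM, while all 5 sibling gill libraries were at 0. Its log2 changes were -0.03 ± 0.57 in epidermis, a sign that turned in 6 of 9 other settings, and 0.81 ± 0.61 in gill (SE; limma, adjusted p = 0.99 and 0.506).

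The genes of this activation route were set side by side within libraries. Among the 15 mutant libraries 9 had mmp2 at 1 TPM or more, 13 had timp2a and 3 had mmp14a or mmp14b at that level. Of the 9 with mmp2, 8 also had timp2a, and 3 also had an mmp14 gene. The 3 libraries with all of these transcripts were mutant epidermis 6 and mutant gill 2 and 3. Among the 12 sibling libraries 1 had mmp2, 5 had timp2a and 3 had an mmp14 gene at 1 TPM, and none had mmp2 together with either of the others. With mmp2 in 1 sibling library and timp2a in 13 of 15 mutant libraries, the joint counts depend largely on the separate counts. Whether the genes occur together was not tested.

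The collagenase gene mmp13b (ENSDARG00000100794) and the membrane-anchored enzyme gene mmp25b (ENSDARG00000010556) were listed at 0 in all 27 libraries, like mmp13a. Over the whole deposit 8777 genes, or 26.99%, were listed at 0 in every library, and a listed 0 can also be a failed estimate.

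The order of the members by mean TPM changed between the groups. In sibling epidermis mmp9 at 243 TPM was followed by timp2b at 3.76, timp2a at 2.36, mmp2 at 1.31, mmp14b at 0.915 and mmp14a at 0.321 TPM, and below mmp9 the ranges of all these neighbours overlapped. In sibling gill mmp9 at 40.7 TPM was followed by timp2b at 10.1, timp2a at 3.42 and mmp2 at 0.0903 TPM, and the ranges of all neighbours overlapped. In mutant epidermis mmp2 at 34.3 and timp2a at 27.3 TPM led, before mmp9 at 1.35, mmp14b at 1.15 and timp2b at 0.0720 TPM. The ranges of all these neighbours overlapped. In mutant epidermis 2, 4 and 7 mmp9 stood above mmp2 (2.18, 1.81 and 1.02 against 0.322, 0.533 and 0.587 TPM). In mutant gill timp2a at 121 TPM led and mmp2 at 17.5 TPM came next, before timp2b at 4.35, mmp9 at 2.20 and mmp14b at 2.13 TPM. Here too the ranges of all neighbours overlapped. In mutant gill 1, 3, 4 and 5 mmp9 stood above mmp2 (6.20, 2.71, 2.31 and 1.44 against 0.623, 1.05, 0.563 and 0.746 TPM).

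**Figure D3:**
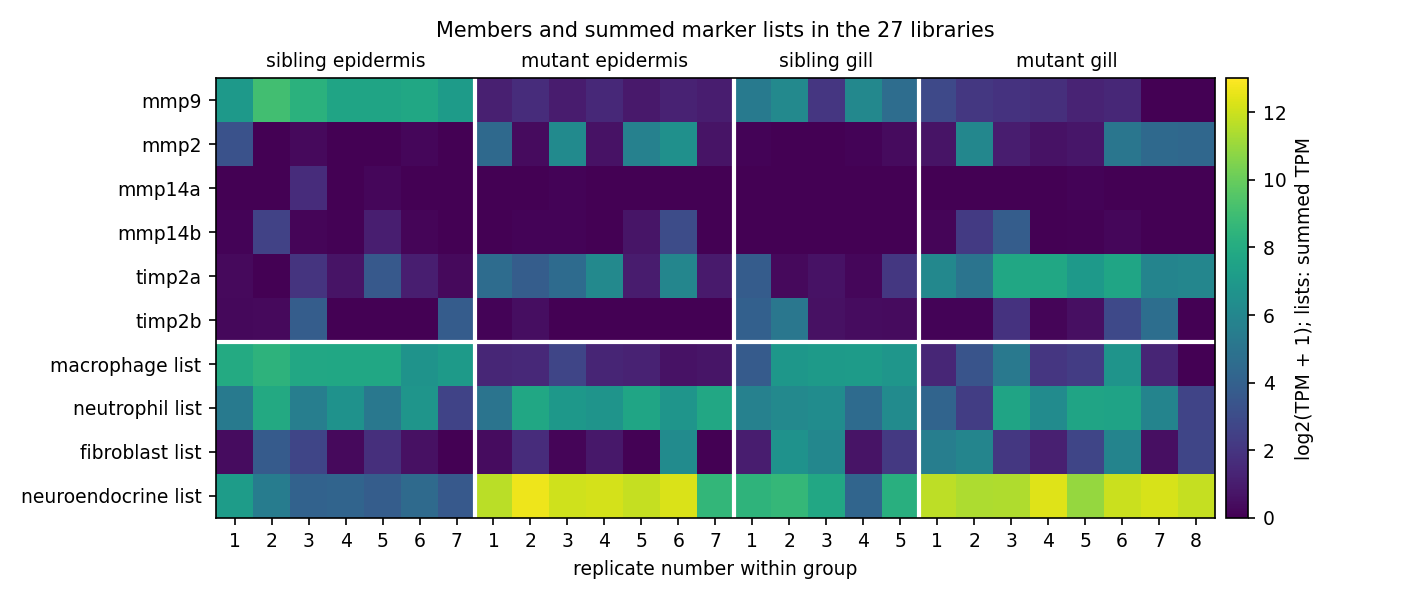
Colour gives log2(TPM + 1) of 6 members and of the summed TPM of 4 marker lists (rows) in each of 27 libraries (columns, by group and replicate number). The row of mmp9 is brighter in siblings than in mutants except in sibling gill 3 (3.22 TPM). The row of timp2a is brighter in mutants except in mutant epidermis 5 and 7 (0.961 and 0.910 TPM). That of the neuroendocrine list is brightest in mutants other than mutant epidermis 7 (384.5 TPM), and mmp2 is high in 4 libraries of each mutant group.

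Fibroblasts are a common source of mmp2, mmp14 and timp2 transcripts, so their markers were read beside these genes. Of 10 fibroblast markers 2, 3, 6 and 7 reached 1 TPM in sibling epidermis, mutant epidermis, sibling gill and mutant gill. Their sum ran from 0 to 12.4 TPM in sibling epidermis and from 0 to 75.7 TPM in mutant epidermis, where lum and postnb stayed under 1 TPM, pdgfra and fn1b were at 0, and library 6 at 75.7 TPM owed most to dcn at 65.5 TPM. Mutant epidermis 1, 3 and 5, with mmp2 at 20.7, 74.1 and 52.1 TPM, had fibroblast sums of 0.330, 0.136 and 0.0581 TPM. In gill the sum ran from 0.620 to 98.9 TPM in siblings and from 0.453 to 58.8 TPM in mutants. Mutant gill 2 and 6, with mmp2 at 63.1 and 33.8 TPM, had sums of 58.8 and 58.1 TPM, and mutant gill 7 and 8, with mmp2 at 20.9 and 19.2 TPM, had sums of 0.453 and 5.65 TPM. Mutant gill 1, with mmp2 at 0.623 TPM, had a sum of 46.9 TPM. For timp2a, mutant gill 6, 1 and 2 and mutant epidermis 6 stood at 196, 65.5, 31.4 and 61.1 TPM with fibroblast sums of 58.1, 46.9, 58.8 and 75.7 TPM. Mutant gill 4, 3, 5, 8 and 7 stood at 212, 212, 132, 60.8 and 56.7 TPM with sums of 1.22, 3.32, 5.62, 5.65 and 0.453 TPM. Mutant epidermis 4, 1, 3 and 2 had timp2a at 69.3, 23.3, 22.5 and 13.1 TPM with sums of 0.814, 0.330, 0.136 and 2.18 TPM. Mutant epidermis 5 and 7 had timp2a at 0.961 and 0.910 TPM with sums of 0.0581 and 0 TPM. Sibling gill 2 and 3, with sums of 98.9 and 63.0 TPM, had timp2a at 0.255 and 0.537 TPM and mmp2 at 0.

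The neuroendocrine list and single keratin genes also differed with the genotype. The neuroendocrine sum (8 markers, among them scgn, chga and tph1a, all at 1 TPM or more in some library of each mutant group) ran from 11.2 to 145 TPM in epidermis and 18.1 to 409.5 TPM in gill of siblings. In mutants it ran from 384.5 to 6591 TPM in epidermis and 1944 to 5199 TPM in gill. Mutant epidermis 7, the library with the lowest neuroendocrine sum among mutants, had timp2a at 0.910 TPM and mmp2 at 0.587 TPM. Mutant epidermis 5, with a neuroendocrine sum of 3765 TPM, had timp2a at 0.961 TPM as well, and mmp2 at 52.1 TPM. Mutant epidermis 2 and 4, with sums of 6591 and 4550 TPM, had mmp2 at 0.322 and 0.533 TPM and timp2a at 13.1 and 69.3 TPM. Mutant epidermis 1, 3 and 6, with sums of 3167, 4320 and 4989 TPM, had timp2a at 23.3, 22.5 and 61.1 TPM. Their mmp2 stood at 20.7, 74.1 and 91.6 TPM. All 8 mutant gill libraries had timp2a at 31.4 TPM or more. Among them library 5, with the lowest sum at 1944 TPM, had timp2a at 132 TPM. Of these 8 libraries 4 had mmp2 at 10 TPM or more. The superficial keratinocyte sum had medians of 680 and 2025 TPM in sibling and mutant epidermis and of 63.3 and 433 TPM in sibling and mutant gill; 4 or 5 of 7 markers reached 1 TPM in each group, and krt17 was at 0 in 3 of the groups. The basal sum had medians of 258.5 and 942.5 TPM in epidermis and 112.5 and 337 TPM in gill, with krtt1c19e at 0 in every library. Most of these sums came from 1 keratin gene each, krt4 in the superficial list (means of 681 and 1688 TPM in sibling and mutant epidermis) and krt5 in the basal list (282 and 2588 TPM). Other members of these lists moved both ways in epidermis. In siblings and mutants the plakin gene ppl had means of 9.13 and 213 TPM, cyt1 of 0.0687 and 3.76 TPM and cyt1l of 0 and 1.16 TPM. Lower in mutants was the plakin gene evpla, with means of 28.4 and 3.05 TPM. The transcription factor gene tp63 had means of 1.07 and 0.0254 TPM and the hemidesmosome collagen gene col17a1b of 0.628 and 0.0522 TPM. These 2 genes had sibling medians of only 0.0878 and 0 TPM. The basal marker lamb4 was higher in mutant epidermis, with means of 0.0204 and 0.919 TPM in siblings and mutants and medians of 0. In gill the means of tp63 and col17a1b were higher in mutants, at 3.615 and 6.461 TPM. Their medians there were 0.0445 and 0.117 TPM in mutants, against 1.384 and 0 TPM in siblings. In mutant epidermis 5 of 7 basal markers stayed under 1 TPM. The part of the fibroblast, neuroendocrine and keratinocyte lists in the values of timp2a and mmp2 was not tested.

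Likeness of pattern over the 27 libraries was ranked among the 13465 tested genes, leaving out members and genes with a clone-style or identifier symbol. Of the genes kept, the nearest to mmp9 were rassf4a, plxnb2b, cyth4b and swap70a. Their Pearson correlations of log2(TPM + 1) were 0.973, 0.937, 0.922 and 0.919. Their roles are in Ras and plexin signalling and in the regulation of small GTPases. The gene rassf4a had means of 102 and 0.660 TPM in sibling and mutant epidermis and of 18.9 and 1.34 TPM in sibling and mutant gill. Nearest to timp2a were tph1a at 0.860, tbx1 at 0.828, nfatc2a at 0.816 and doc2b at 0.798. Of these tph1a encodes the first enzyme of serotonin synthesis, tbx1 and nfatc2a encode transcription factors, and doc2b encodes a calcium sensor of vesicle release. The gene tph1a had means of 1.83 and 71.8 TPM in sibling and mutant epidermis and of 12.6 and 409 TPM in sibling and mutant gill. These correlations include the difference between groups, and are given as a description.

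Genes around the members were read from 6 lists of matrix proteolysis. Of all tested genes 12.8% passed in epidermis and 6.21% in gill, and each list held few tested genes. Among 15 other metalloproteinase genes that were listed, 1 passed the filter, mmp11a, which encodes a stromelysin-type enzyme. It stood at 6.77 ± 9.45 TPM in sibling epidermis and 0.0911 ± 0.168 TPM in mutant epidermis (SD, n = 7 each) with a log2 change of -1.62 that did not pass (limma, adjusted p = 0.166). None of 5 other inhibitor genes passed the filter, among them the 3 timp4 genes, of which timp4.1 and timp4.2 were at 0 in every library. Of 7 tested ADAM genes, which encode membrane sheddases, 0 passed in either tissue; their median log2 change was -1.09 in epidermis and 0.29 in gill, against -0.27 and -0.03 for all genes. Of these 7 genes none had an unadjusted p under 0.05 in gill, and adam17a alone did in epidermis (log2 change -2.20 ± 1.02, SE; limma, adjusted p = 0.167).

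Among 9 tested genes of activating convertases and the plasmin system 0 passed in epidermis, with a median of 0.36. In this tissue st14a, which encodes the membrane protease matriptase, and serpine2, which encodes a protease inhibitor, had unadjusted p-values under 0.05 and did not pass (log2 changes of -1.503 and -1.895; limma, adjusted p = 0.142 and 0.174).

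Of 6 tested matrix substrate genes 1 rose in epidermis (16.7%, against 12.8% of all genes passing) and 0 passed in gill (against 6.21%). Their median log2 changes were 0.45 and 1.14. Tenascin C, encoded by tnc and found in remodelled matrix, had a lowest, median and highest library of 0, 0.0679 and 0.782 TPM in sibling epidermis and of 0.360, 19.0 and 26.5 TPM in mutant epidermis. It was above 1 TPM in 6 of 7 mutant libraries and in no sibling library (log2 change 3.48 ± 0.75, SE; limma, adjusted p = 0.00118). In gill it went from 0.224 ± 0.424 TPM (SD, n = 5) to 5.23 ± 5.16 TPM (SD, n = 8), with a log2 change of 1.75 ± 0.80 (SE) that did not pass (limma, adjusted p = 0.217). The other matrix genes in gill with an unadjusted p under 0.05 were col4a5 and lamb1a, which encode chains of basement membrane collagen and laminin (log2 changes of 1.36 and 1.46; limma, adjusted p = 0.219 and 0.23).

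Of 4 tested surface partners 1 fell in epidermis (25%, against 12.8% of all genes passing) and 0 passed in gill (against 6.21%). Their median log2 changes were -0.60 and -0.69. The gene cd63 encodes a tetraspanin that in mammals binds the inhibitor TIMP1. It had a lowest, median and highest library of 583, 803 and 972 TPM in sibling epidermis and of 43.7, 93.8 and 343 TPM in mutant epidermis, without overlap (log2 change -2.88 ± 0.40, SE; limma, adjusted p = 2.19e-06). In gill cd63 went from 725.5 ± 139 TPM (SD, n = 5) to 338 ± 168 TPM (SD, n = 8), and its log2 change of -1.25 ± 0.42 (SE) did not pass (limma, adjusted p = 0.0735); the hyaluronan receptor gene cd44a was the other with an unadjusted p under 0.05 there (log2 change -1.90; limma, adjusted p = 0.215). Mutants had more cd63 in gill than in epidermis by 1.47 ± 0.38 log2 units (SE; limma, adjusted p = 0.0218), a call that ended without mutant epidermis 3 (adjusted p = 0.0527), without mutant gill 2 (0.0528) and in 3 of 11 other settings, with adjusted p from 0.0167 to 0.474 over them.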

How the data were processed

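The authors deposited TPM values of 27 libraries in 1 table, unpooled. STAR, featureCounts and DESeq2 (no versions) and the builds danRer11 and GRCz11 are named in the submitters' processing notes; the sources used here do not give the annotation, the strand setting or the treatment of reads shared between paralogues. The paralogue pairs timp2a and timp2b, mmp14a and mmp14b, and mmp13a and mmp13b are uncertain to the extent that such reads were split or lost. TPM values in a library add up to a constant, and each gene's value also depends on all others. The labels give no batch. No coordinates are given, because the gene table at hand names another assembly.

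The members and lists were chosen with earlier results of these data known. Genes at 1 TPM or more in at least 5 libraries entered limma 3.58.1 in R 4.3.3 (eBayes with trend, 1 mean per group, 27 libraries in 1 fit, 23 residual degrees of freedom) on log2(TPM + 1), a scale that understates changes of low genes. Tests are two-sided, with Benjamini-Hochberg adjustment over all 13465 genes. The fit was tested on simulated data, with large changes placed only in genes that were high in siblings of both tissues. No member was that high in both, so this test does not cover members near 0. Named genes were all members, up to 4 genes past the threshold per list and tissue, and the 4 genes with the highest correlation to each of the 2 members with the highest group mean. Members and genes with a clone-style or identifier symbol were left out of the ranking by correlation. Genes of the lists named without a call (mmp11a, timp4.1, timp4.2, adam17a, st14a, serpine2, col4a5, lamb1a and cd44a) and markers named singly were chosen after their values were seen. The deviations of same-numbered libraries of 2 groups from their group means had correlations of -0.0308 to 0.0776 over 24 pairs. Differently numbered libraries were not compared, so these values cannot tell whether the numbers pair the libraries. Alternatives were other pseudocounts, filters, scalings, weights, a covariate, a replicate block and leaving out libraries. Figures were drawn with matplotlib 3.10.9. The gill result of the list of activating convertases and the plasmin system is not reported here.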

Additional observations from a re-analysis of the deposited data

Results flagged for a closer look

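In groups of this size, Dixon's test was applied to TPM values. A library was set apart where its gap to the next library exceeded the 95% critical value for the range of its group. Chance alone flags about 1 in 20 groups of normally distributed values, but that rate does not hold for TPM values with many near 0. Of 18 sets of a member and a group 8 were set apart, each by its highest library, and no excess over chance is claimed. In sibling epidermis these were mmp2 in library 1 at 8.72 TPM (next library 0.269 TPM), mmp14a in library 3 at 2.09 TPM (0.153 TPM), mmp14b in library 2 at 4.83 TPM (1.14 TPM) and timp2a in library 5 at 11.4 TPM (2.87 TPM). In mutant epidermis mmp14b in library 6 stood at 7.21 TPM (0.672 TPM). In sibling gill timp2a in library 1 stood at 12.9 TPM (3.28 TPM). In mutant gill mmp14b in library 3 stood at 13.1 TPM (3.601 TPM) and timp2b in library 7 at 25.1 TPM (6.25 TPM). None of these sets belonged to mmp9.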

How the results depend on the processing

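The fall of mmp9 in both tissues and the rise of timp2a in gill passed under all 11 other settings and in every fit that left out 1 library, with highest adjusted p-values (limma) of 0.0431 for mmp9 in gill over the settings and 0.0181 over those fits. The call of timp2a in epidermis ended in 4 settings: with a pseudocount of 10 (1.28, adjusted p = 0.0903), with detected genes as a covariate (2.85, 0.0631), with the libraries of the contrast alone (2.71, 0.057) and without the 3 libraries with the fewest genes (2.26, 0.141). The cause was not tested. TPM values carry no read counts, and the low levels of mmp14a, mmp14b and sibling mmp2 rest on a few steps. Relative to the smallest, the step ran from 1.09 to 1.94 in sibling epidermis and from 1.38 to 2.15 in mutant epidermis. In gill it ran from 1 to 1.85 in siblings and from 1.19 to 1.90 in mutants. Values near 0 were thus coarser in some libraries than in others.

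Of members, 1 passed in epidermis with a pseudocount of 10, the covariate or the contrast alone (2 in the fit reported), and 1 to 3 with 1 library left out. In siblings 1 member passed between tissues under 8 settings (0 in the fit reported, where 0.958% of all genes passed). In mutants 1 passed with a pseudocount of 10 or without the 3 libraries, and 0 to 1 with 1 library left out. Genes whose mutant effect differed between tissues numbered 8, and 26 with a pseudocount of 0.1, 13 with 10, 13 with no filter, 1 with median centring, 19 with array weights, 3 with the covariate, and 2 to 26 with 1 library left out. Between tissues in mutants they numbered 569, and 358 with no filter, 338 with centring, 360 with weights, 214 with the covariate and 174 with the contrast alone. In siblings they numbered 129, and 72 with a stricter filter, 74 with centring, 245 with weights, and 74 (without sibling gill 5) to 117 with 1 library left out. In gill 1303 passed with centring (836 in the fit reported), and 512 (without sibling gill 4) to 883 with 1 library left out.

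With the replicate number as a block 18 genes differed between tissues in their mutant effect; no member changed its call. Of same-numbered libraries 0 of 24 pairs had a correlation of deviations over 0.1, with no differently numbered pairs to compare.

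Directions turned for log2 changes that had not passed. For mmp14b these were 0.0168, 0.29, 1.16, 0.00584, 0.42 and 0.17 in epidermis and -0.0332, -0.46 and -0.33 between tissues in mutants. For mmp9 between tissues in mutants they were -0.23, -0.86, -0.50 and -0.28, and for timp2a in siblings -0.13 and -0.0946. For timp2b they were 0.10 in epidermis, 0.0527 in gill, and -0.0143 and -0.0483 for the difference of the effects, which for mmp2 was 0.0905. With 1 library left out, mmp14b in epidermis ran from -0.13 to 0.0684, the difference of the effects from -0.71 to 0.31 for mmp2 and from -0.20 to 1.04 for timp2b, and the tissue difference from -0.53 to 0.0192 for mmp2 in siblings, from -0.32 to 0.69 for timp2a in siblings and from -0.00503 to 0.40 for mmp9 in mutants.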
